A study of Mus musculus with 12 samples.

Results

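The expression of Wnt ligands, their receptors and antagonists, and the TCF/LEF factors was compared in tumor cells of the pEGFR-Hi and pEGFR-Lo lines, sorted from mouse brains. The members were every gene of the array whose symbol begins with Wnt, Fzd, Sfrp or Dkk and a digit, together with a list of 24 further genes of the pathway, of which 23 were found. This gave 61 of the 19938 genes measured, and each was read from 1 probe set, the brightest where a gene had several (Wnt4 among the members). One of the 61, Fzd10os, is a transcript on the strand opposite Fzd10 and not a receptor gene, so it was kept apart from the Frizzled receptors.

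Both tumor lines derive from neural progenitor cells taken from the subventricular zone of mice null for Ink4a/Arf and transduced with human EGFRvIII, a truncated, constitutively active epidermal growth factor receptor, and both groups therefore share the Ink4a/Arf loss and the receptor. The lines came from 1 pool of parental cells, differ in EGFRvIII activity and had each been passaged through a mouse as a tumor, so that each group is 1 line. Cells were injected intracranially into FVB mice, 2 µl at 200000 cells per µl, and ZsGreen-tagged tumor cells were isolated by fluorescence-activated cell sorting from 6 mice with pEGFR-Hi and 6 mice with pEGFR-Lo tumors, whose age and sex are not given in the labels. Brains of each group were taken near its own median survival, so tumor line, EGFRvIII activity and time after transplant cannot be told apart. RNA was measured on 12 arrays as log2 values that carry a signal and not a count, and the number of arrays limits the precision. The 6 arrays of a group are 6 mice carrying 1 line, so p-values measure the spread between mice and not between lines. Arrays of 1 group correlated with r of 0.985 to 0.994 and arrays of different groups with r of 0.944 to 0.959. A pair of arrays stood apart within their group: the mean level of 21 interferon-stimulated genes was 5.21 and 5.12 in pEGFR-Lo replicates 3 and 6, against 6.23 to 6.79 in the other pEGFR-Lo mice and 7.74 to 8.91 in pEGFR-Hi.

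Wnt proteins are secreted, lipid-modified ligands that bind Frizzled receptors. In the canonical branch a Frizzled and the co-receptor Lrp5 or Lrp6 halt the destruction complex of Apc and Axin, so that beta-catenin accumulates and acts in the nucleus with TCF/LEF factors. Other branches signal through Frizzled, Ror and Ryk receptors to the cytoskeleton and to calcium. In the brain the pathway is known for patterning, for progenitor growth and, through Wnt7a and Wnt7b, for the growth of blood vessels.

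Of the Wnt members, 12 were higher in pEGFR-Lo tumor cells and a single one, the transcription factor Tcf7l2, was higher in pEGFR-Hi. The members higher in pEGFR-Lo were the secreted antagonists Sfrp4 and Sfrp1, the transcription factor Lef1, the ligands Wnt7a and Wnt7b, the ligand-modifying enzyme Porcn, the receptor Fzd10, the scaffold Apc, the intracellular antagonists Dact1 and Nkd1, and the formins Daam1 and Daam2. Their folds ran from 2.11 for Sfrp1 to 24.6 for Sfrp4. A gene counted as called when its limma p, adjusted by Benjamini-Hochberg, was under 0.01 and its fold was 2 or more; a gene under 0.01 at any fold is said to have passed the test. By that rule 12 of the 61 members (19.7%) were called higher in pEGFR-Lo, where 5.06% of all genes were. In the other direction 1 of 61 (1.64%) was called, where 3.99% of all genes were. At an adjusted p under 0.01 with no limit on the fold, 19 members were higher in pEGFR-Lo and 8 higher in the pEGFR-Hi mice, where the shares over all genes were 12.9% and 14.7%. Over all genes, 16.6% and 19.4% were so at an adjusted p under 0.05. The median log2 difference of the members, pEGFR-Hi minus pEGFR-Lo, was -0.035, and that of all genes 0.010. The median size of the difference was 0.22 for the members and 0.18 for all genes.

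Levels were read against a background of 4.10 on the log2 scale, the 95th percentile of the olfactory receptor genes on the array, and the fold of a gene whose lower group lay under it is given as a lower bound. Above it in at least 1 group were 48 members. Wnt11 and Wif1 were above it in pEGFR-Lo only. The other 13, Wnt1, Wnt2, Wnt2b, Wnt3, Wnt3a, Wnt8a, Wnt8b, Wnt16, Ror1, Sfrp5, Dkk1, Dkk2 and Dkk3, were below it in both groups, and none of them passed the test. Among the 13783 genes above background in a group, 7.29% were called higher in pEGFR-Lo and 5.74% higher in pEGFR-Hi.

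**Figure D1:**
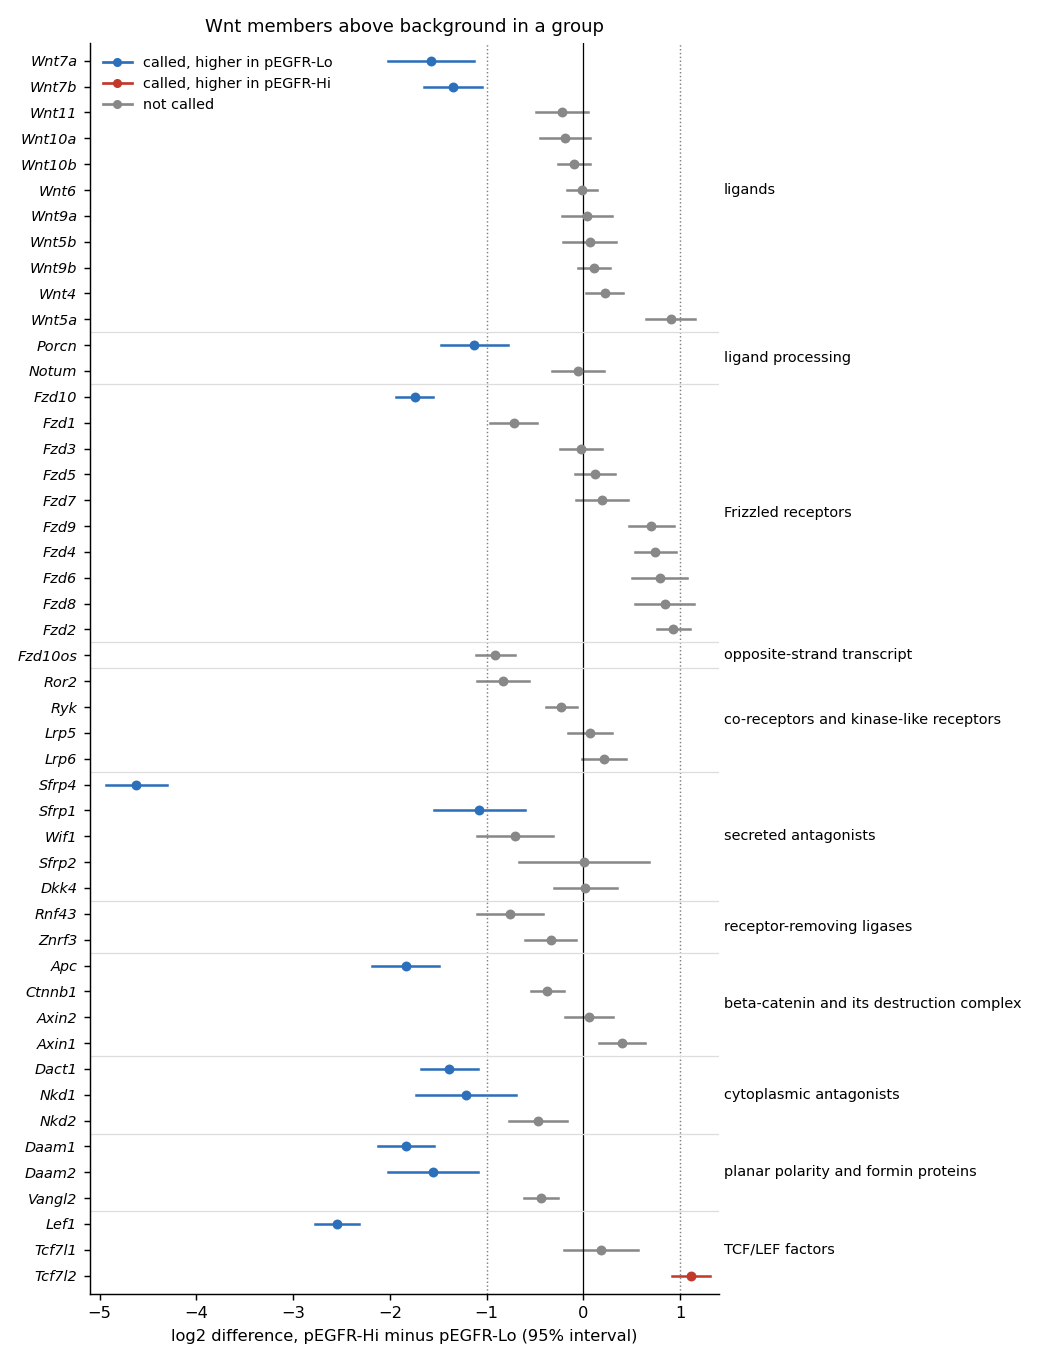
Log2 difference in expression, pEGFR-Hi minus pEGFR-Lo, with its 95% interval from limma for the 48 Wnt members above background in a group, ordered by class; dotted lines mark a 2-fold difference and n = 6 mice per group. Blue members were called higher in pEGFR-Lo, and Sfrp4 (-4.62) and Lef1 (-2.55) lie farthest to the left; Tcf7l2 (1.11), in red, was called higher in pEGFR-Hi.

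The windows upstream of Lef1 and Tcf7l2 are printed because these factors, which bind the same DNA letters, were called in opposite directions, and that of Wnt11 because it holds those letters. They are the 250 bases before the first listed start of each gene in the RefSeq annotation of GRCm38.p6, all on the plus strand, at chr3:131110047-131110296 for Lef1, chr19:55741560-55741809 for Tcf7l2 and chr7:98834862-98835111 for Wnt11. Capitals mark ATCAAAG, the core that TCF/LEF factors bind.
Lef1: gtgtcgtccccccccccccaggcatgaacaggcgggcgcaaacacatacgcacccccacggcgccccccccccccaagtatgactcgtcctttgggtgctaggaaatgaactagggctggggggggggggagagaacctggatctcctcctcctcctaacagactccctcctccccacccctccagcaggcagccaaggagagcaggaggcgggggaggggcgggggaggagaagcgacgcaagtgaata
Tcf7l2: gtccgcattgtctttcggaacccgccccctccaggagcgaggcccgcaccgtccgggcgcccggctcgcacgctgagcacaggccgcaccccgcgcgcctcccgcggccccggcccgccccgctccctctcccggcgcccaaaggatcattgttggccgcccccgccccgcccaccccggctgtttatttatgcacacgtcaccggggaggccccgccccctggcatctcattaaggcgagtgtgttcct
Wnt11: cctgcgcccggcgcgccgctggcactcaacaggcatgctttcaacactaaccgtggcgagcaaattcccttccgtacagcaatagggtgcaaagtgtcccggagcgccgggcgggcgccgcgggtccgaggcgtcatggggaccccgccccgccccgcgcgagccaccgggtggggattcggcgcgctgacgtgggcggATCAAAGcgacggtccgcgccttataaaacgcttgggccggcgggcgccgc
The search covered 300 bases for each start, the 250 before it and 50 after it. In these windows the letters ATCAAAG were searched on both strands, where the reverse complement reads CTTTGAT. They were found in 3.73% of 32851 windows and in 1160 of 27025 genes (4.29%). Of the members 41 had an entry, and 2 of them held the letters, Wnt11 with the first base at -51 from its first start and Wnt5b at -71 from another of its starts. Of the 8 called members with an entry (Lef1, Tcf7l2, Fzd10, Wnt7a, Nkd1, Dact1, Daam1 and Daam2), 0 held them. This says only that these letters are not in these windows.

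The ligands Wnt7a and Wnt7b were both higher in pEGFR-Lo tumor cells. The lowest, median and highest Wnt7a values were 4.77, 5.45 and 5.96 in pEGFR-Hi and 6.57, 7.08 and 7.26 in pEGFR-Lo. Every pEGFR-Lo mouse lay above every pEGFR-Hi mouse, and the pEGFR-Hi mice were the more spread (SD 0.53 against 0.30). The difference was 2.98-fold (95% interval 2.18 to 4.06, limma adjusted p = 1.66e-05). Wnt7b, a close relative of Wnt7a, stood at 4.76, 4.97 and 5.37 in pEGFR-Hi and 6.07, 6.28 and 6.84 in pEGFR-Lo, again without overlap, 2.54-fold higher (95% interval 2.07 to 3.12, limma adjusted p = 1.02e-06).

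Wnt5a, the ligand best known for signaling without beta-catenin, lay the other way. Its lowest, median and highest values were 5.73, 5.84 and 6.19 in pEGFR-Hi and 4.60, 5.02 and 5.34 in pEGFR-Lo. The groups did not overlap, and the difference passed the test but stayed under 2-fold (1.87-fold, 95% interval 1.57 to 2.23, limma adjusted p = 1.54e-05). Wnt4 was 5.52 ± 0.085 in pEGFR-Hi and 5.30 ± 0.19 in pEGFR-Lo (SD, n = 6 each), with an adjusted p of 0.0707 in limma and overlapping groups. The other ligands above background were Wnt5b, Wnt6, Wnt9a, Wnt9b, Wnt10a, Wnt10b and Wnt11. None of these passed the test. Wnt11 was below background in pEGFR-Hi and at 4.23 in pEGFR-Lo, a fold of at least 1.09, and the log2 differences of the others lay between -0.19 (Wnt10a) and 0.11 (Wnt9b).

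Porcn encodes the enzyme that attaches the lipid that Wnts need for secretion, and Notum an enzyme that removes it. Porcn had lowest, median and highest values of 6.29, 6.93 and 7.26 in pEGFR-Hi and 7.69, 7.82 and 8.56 in pEGFR-Lo. It was 2.18-fold higher in pEGFR-Lo with no overlap (95% interval 1.71 to 2.78, limma adjusted p = 4.32e-05). Notum was near background in both groups, 4.44 ± 0.28 and 4.49 ± 0.19, and its difference of -0.055 had a 95% interval of -0.32 to 0.21.

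The 10 Frizzled receptors, the membrane proteins that bind Wnts, were all above background and did not differ in 1 common direction. Toward pEGFR-Hi, 5 of them passed the test (Fzd2, Fzd4, Fzd6, Fzd8 and Fzd9), each under 2-fold. Toward pEGFR-Lo, 2 passed it (Fzd10 and Fzd1). Fzd3, Fzd5 and Fzd7 did not pass, with log2 differences of -0.021, 0.12 and 0.19. Fzd10 was the single Frizzled called at 2-fold.

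Fzd10 stood at 4.20, 4.50 and 4.65 in pEGFR-Hi mice (lowest, median, highest), close to background, and at 5.98, 6.25 and 6.35 in pEGFR-Lo mice. The spread within each group was small (SD 0.16 and 0.13) against a difference of 3.35-fold (95% interval 2.93 to 3.83, limma adjusted p = 4.48e-10). The opposite-strand transcript Fzd10os ran the same way, 4.18, 4.35 and 4.56 in pEGFR-Hi and 5.13, 5.19 and 5.53 in pEGFR-Lo. It was 1.88-fold higher in pEGFR-Lo, under the 2-fold limit (limma adjusted p = 1.09e-06), and whether the 2 probe sets tell the strands apart was not tested. Fzd1 was 7.91, 8.55 and 8.69 in pEGFR-Hi and 9.12, 9.18 and 9.25 in pEGFR-Lo. Its pEGFR-Lo mice were nearly alike (SD 0.058) and all above the pEGFR-Hi mice, by 1.65-fold on average (limma adjusted p = 0.000101).

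Of the receptors higher in pEGFR-Hi, Fzd2 had the largest difference, with 7.62, 7.78 and 7.87 in pEGFR-Hi and 6.71, 6.78 and 7.07 in pEGFR-Lo, or 1.91-fold (95% interval 1.69 to 2.14, limma adjusted p = 1.33e-07). Fzd8 values were 5.34, 5.56 and 5.98 in pEGFR-Hi and 4.44, 4.88 and 5.05 in pEGFR-Lo, 1.79-fold apart (limma adjusted p = 0.000188). Fzd6, a receptor of planar polarity, was 4.67, 4.86 and 5.31 in pEGFR-Hi and 3.63, 4.13 and 4.41 in pEGFR-Lo, where its mean sat at the background. In all of these, as in Fzd4 and Fzd9, every pEGFR-Hi mouse was above every pEGFR-Lo mouse. The Fzd6 difference was 1.73-fold (limma adjusted p = 0.000171).

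Fzd4, which also binds the non-Wnt ligand norrin, was 7.15, 7.56 and 7.66 in pEGFR-Hi and 6.56, 6.70 and 6.90 in pEGFR-Lo, 1.68-fold higher in pEGFR-Hi (limma adjusted p = 1.88e-05). Norrin itself (Ndp, not a member) was 5.57-fold higher in pEGFR-Lo, with means of 4.39 ± 0.29 in pEGFR-Hi and 6.87 ± 0.21 in pEGFR-Lo (limma adjusted p = 6.39e-10). Tspan12, the tetraspanin of the norrin receptor, was likewise higher in pEGFR-Lo (2.40-fold, limma adjusted p = 6.90e-08). Fzd9 was 7.87, 8.17 and 8.51 in pEGFR-Hi and 7.30, 7.43 and 7.70 in pEGFR-Lo, 1.63-fold apart (limma adjusted p = 8.01e-05).

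**Figure D2:**
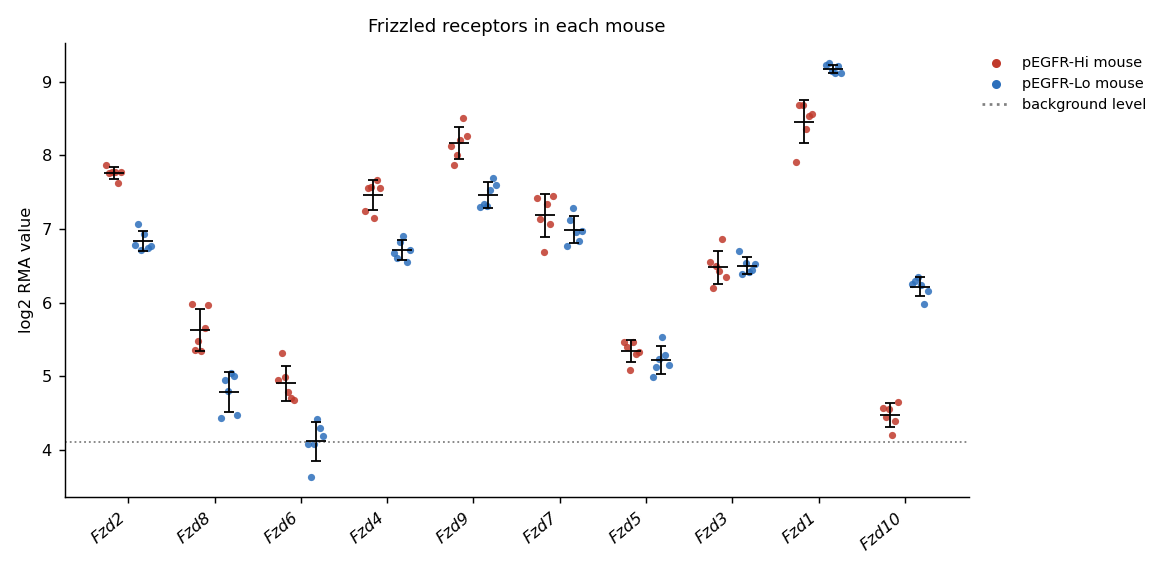
Log2 RMA values of the 10 Frizzled receptors in each mouse, pEGFR-Hi in red and pEGFR-Lo in blue, with mean and SD (n = 6 mice per group) and the background level as a dotted line; levels of different genes come from different probes and are not comparable. Fzd2, Fzd8, Fzd6, Fzd4 and Fzd9 have all red points above the blue ones, and Fzd1 and Fzd10 the reverse.

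The co-receptors of the canonical branch did not pass the test. Lrp5 was 7.71 ± 0.17 in pEGFR-Hi and 7.64 ± 0.21 in pEGFR-Lo (SD, n = 6), a difference of 0.070 with a 95% interval of -0.16 to 0.30. Lrp6 had a difference of 0.22 (95% interval -0.0093 to 0.44). Ror2, a receptor tyrosine kinase that binds Wnt5a, was 4.75, 5.18 and 5.46 in pEGFR-Hi and 5.64, 5.99 and 6.27 in pEGFR-Lo (lowest, median, highest). Its groups did not overlap, and it was 1.78-fold higher in pEGFR-Lo (95% interval 1.48 to 2.14, limma adjusted p = 5.96e-05), the direction opposite to that of Wnt5a. The kinase-like receptor Ryk was 8.94 ± 0.11 and 9.17 ± 0.084, 1.17-fold apart with an adjusted p of 0.0262 in limma, and its groups overlapped.

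Secreted antagonists bind Wnts or their co-receptors outside the cell. Sfrp4, a secreted Frizzled-related protein, had the largest difference of the 61 members and ranked 22 of all 19938 genes by the size of its difference. Its pEGFR-Hi values were 4.43, 5.29 and 5.43 (lowest, median, highest) and its pEGFR-Lo values 9.46, 9.80 and 9.91. The gap between the groups was many times the spread within either (SD 0.37 and 0.16), and pEGFR-Lo was 24.6-fold higher (95% interval 19.8 to 30.5, limma adjusted p = 3.08e-12). Sfrp1 was 5.49, 6.23 and 7.01 in pEGFR-Hi and 6.68, 7.44 and 7.61 in pEGFR-Lo, with overlap, since 1 pEGFR-Hi mouse at 7.01 lay above 2 pEGFR-Lo mice at 6.68 and 6.82. Its difference was 2.11-fold (95% interval 1.52 to 2.92, limma adjusted p = 0.00103), and without pEGFR-Hi replicate 3 its log2 difference of -0.94 was under 2-fold.

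Sfrp2 ranged widely within both groups, 5.34, 5.78 and 6.74 in pEGFR-Hi and 4.91, 5.93 and 6.94 in pEGFR-Lo. Its mean difference of 0.009 had a 95% interval of -0.66 to 0.68, which reaches 1.60-fold higher in pEGFR-Hi. Wif1, which binds Wnts directly, was below background in pEGFR-Hi (3.72 ± 0.22) and 4.42 ± 0.48 in pEGFR-Lo, at least 1.25-fold higher with overlapping groups (limma adjusted p = 0.0065, and 0.01 or more in 8 of 19 alternative fits). Dkk4, an antagonist of Lrp5 and Lrp6, was near background in both groups (4.17 ± 0.20 and 4.14 ± 0.38, 95% interval of the difference -0.30 to 0.35).

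Rnf43 and Znrf3 are ubiquitin ligases that remove Frizzled receptors from the cell surface. Rnf43 was 4.25, 4.46 and 4.76 in pEGFR-Hi and 4.78, 5.29 and 5.77 in pEGFR-Lo, without overlap, 1.69-fold higher in pEGFR-Lo (95% interval 1.34 to 2.14, limma adjusted p = 0.00125). Znrf3 was 6.27 ± 0.20 and 6.60 ± 0.26, with an adjusted p of 0.0421 and overlapping groups.

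Inside the cell, Apc, the scaffold of the destruction complex, was the member of that complex called. Its lowest, median and highest values were 6.54, 6.70 and 6.92 in pEGFR-Hi and 7.78, 8.58 and 9.01 in pEGFR-Lo, 3.57-fold higher in pEGFR-Lo (95% interval 2.80 to 4.55, limma adjusted p = 2.02e-07). The lowest pEGFR-Lo mouse, at 7.78, was still above all pEGFR-Hi mice. The next measured protein-coding genes on 1 side of Apc in the RefSeq order differed little, with Srp19 at 8.33 in pEGFR-Hi against 8.54 in pEGFR-Lo, and Reep5 at 9.69 against 9.80.

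Axin1, the other scaffold of the complex, was 6.70, 6.98 and 7.39 in pEGFR-Hi and 6.49, 6.64 and 6.67 in pEGFR-Lo, 1.32-fold higher in pEGFR-Hi (limma adjusted p = 0.00933). This adjusted p rose to 0.01 or more in 14 of 20 alternative fits, up to 0.0250. Beta-catenin itself (Ctnnb1) was 10.12, 10.27 and 10.44 in pEGFR-Hi and 10.49, 10.65 and 10.78 in pEGFR-Lo. It was 1.30-fold higher in pEGFR-Lo (95% interval 1.15 to 1.46, limma adjusted p = 0.00145), and neither gene's groups overlapped. Axin2, a destruction complex scaffold that canonical Wnt signaling itself induces, was 7.24 ± 0.19 in pEGFR-Hi and 7.18 ± 0.23 in pEGFR-Lo (SD, n = 6). The difference of 0.060 (SE 0.12) had a 95% interval of -0.19 to 0.31, which reaches 1.24-fold higher in pEGFR-Hi. These arrays measured RNA, and the amount or place of beta-catenin protein was not measured.

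Dact1, Nkd1 and Nkd2 encode proteins that bind Dishevelled, the adaptor below Frizzled, and dampen its signal. Dact1 was 5.46, 5.64 and 5.80 in pEGFR-Hi and 6.66, 6.94 and 7.62 in pEGFR-Lo, 2.61-fold higher in pEGFR-Lo with no overlap (95% interval 2.13 to 3.21, limma adjusted p = 7.51e-07). Nkd1 spread more, 5.16, 6.11 and 6.44 in pEGFR-Hi and 6.34, 7.25 and 7.87 in pEGFR-Lo, and its groups overlapped. It was 2.33-fold higher in pEGFR-Lo (95% interval 1.62 to 3.33, limma adjusted p = 0.000776), and without pEGFR-Lo replicates 3 and 6 its log2 difference of -0.98 was under 2-fold. Nkd2 was 4.78 ± 0.34 and 5.25 ± 0.19, with an adjusted p of 0.016 in limma.

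The formins Daam1 and Daam2, which link Dishevelled to actin assembly, were both higher in pEGFR-Lo. Daam1 was 6.20, 6.40 and 6.72 in pEGFR-Hi and 7.71, 8.25 and 8.54 in pEGFR-Lo (lowest, median, highest). The lowest pEGFR-Lo mouse was about 1 log2 unit above the highest pEGFR-Hi mouse, and the difference was 3.57-fold (95% interval 2.92 to 4.35, limma adjusted p = 2.12e-08). Daam2 was 3.85, 4.47 and 5.03 in pEGFR-Hi, where 1 mouse was below background, and 5.68, 5.86 and 6.70 in pEGFR-Lo, 2.94-fold apart without overlap (95% interval 2.13 to 4.05, limma adjusted p = 2.93e-05). Dact1 and Daam1 lie beside each other on the chromosome, with 0 other measured protein-coding genes between them. Vangl2, a membrane protein of planar cell polarity, was 5.88, 5.89, 5.95, 6.05, 6.06 and 6.11 in the pEGFR-Hi mice and 6.24, 6.32, 6.37, 6.43, 6.54 and 6.63 in the pEGFR-Lo mice, 1.35-fold higher in pEGFR-Lo with no overlap (limma adjusted p = 0.000541).

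TCF/LEF factors bring beta-catenin to DNA. Of the 3 measured here (Lef1, Tcf7l1 and Tcf7l2), 1 was higher in each tumor type and Tcf7l1 did not pass the test; Tcf7 was not analysed here. Lef1 was 4.63, 5.08 and 5.34 in pEGFR-Hi and 7.43, 7.60 and 7.81 in pEGFR-Lo, 5.85-fold higher in pEGFR-Lo (95% interval 5.0 to 6.84, limma adjusted p = 3.84e-11). More than 2 log2 units lay between the highest pEGFR-Hi mouse, at 5.34, and the lowest pEGFR-Lo mouse, at 7.43. Tcf7l2 was 9.12, 9.22 and 9.60 in pEGFR-Hi and 8.04, 8.14 and 8.37 in pEGFR-Lo, without overlap and in the other direction. It was 2.16-fold higher in pEGFR-Hi (95% interval 1.89 to 2.48, limma adjusted p = 8.92e-08). Tcf7l1, best known as a repressor of Wnt target genes, was 7.23 ± 0.30 and 7.05 ± 0.42, with a difference of 0.19 and a 95% interval of -0.20 to 0.57. The 4 measured genes between Lef1 and its neighbour Dkk2 (Hadh, Cyp2u1, Sgms2 and Papss1) had log2 differences of 0.054 to 0.53, none toward pEGFR-Lo.

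**Figure D3:**
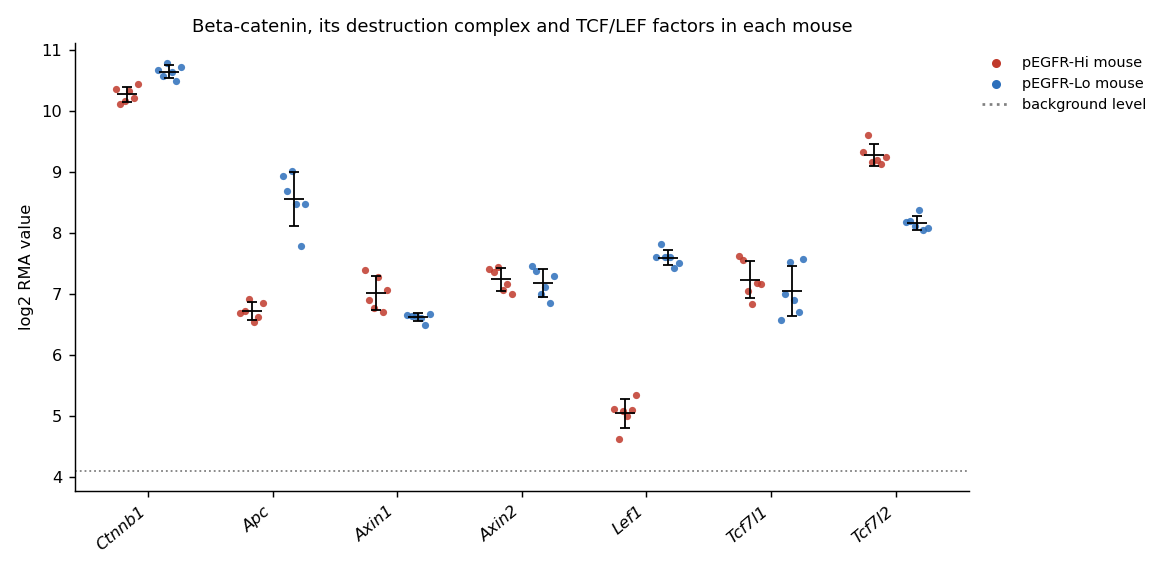
Log2 RMA values of beta-catenin (Ctnnb1), the scaffolds Apc, Axin1 and Axin2 and the TCF/LEF factors in each mouse, pEGFR-Hi in red and pEGFR-Lo in blue, with mean and SD (n = 6 mice per group) and the background level as a dotted line. Lef1 and Apc are higher in every pEGFR-Lo mouse, Tcf7l2 in every pEGFR-Hi mouse, and the points of Axin2 and Tcf7l1 overlap.

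Across the 13 called members, 10 of the 12 higher in pEGFR-Lo and Tcf7l2 had groups that did not overlap. Sfrp1 and Nkd1 were the exceptions. The calling rule itself favours separate groups, and the share of such groups over all called genes was not counted. The SD within a group ran from 0.12 to 0.53 over these members, and was widest in Wnt7a in pEGFR-Hi and in Nkd1 in pEGFR-Lo.

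**Figure D4:**
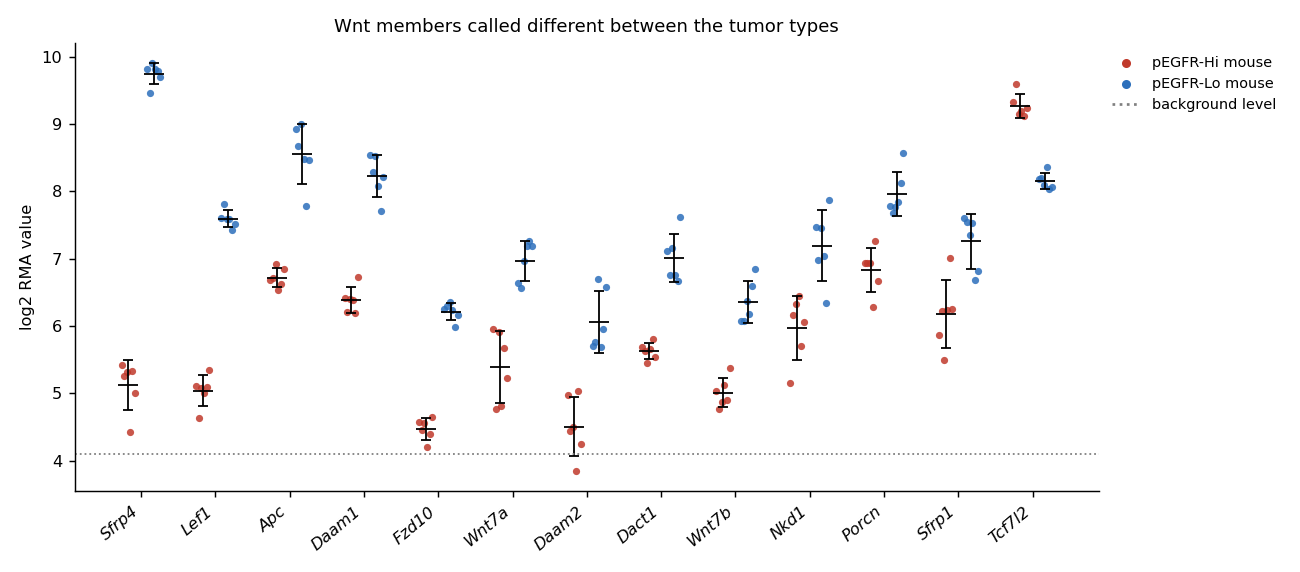
Log2 RMA values in each mouse of the 13 Wnt members called at an adjusted p under 0.01 and 2-fold, pEGFR-Hi in red and pEGFR-Lo in blue, with mean and SD (n = 6 mice per group) and the background level as a dotted line. Groups are separate in every member shown but Nkd1 and Sfrp1.

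Other genes of the pathway, which are no members, were taken from 6 lists of 183 measured genes in all. Of these, 21 (11.5%) were called higher in pEGFR-Lo, 8 (4.37%) higher in pEGFR-Hi and 154 in neither direction. Over all genes the shares were 5.06% higher in pEGFR-Lo and 3.99% higher in pEGFR-Hi. Among 12 genes listed under ligand supply, 4 were called, all higher in pEGFR-Lo. They were Mest (11.4-fold, limma adjusted p = 3.01e-11), Ndp, the heparan sulfate sulfatase Sulf2 (3.98-fold, limma adjusted p = 1.19e-10) and the glypican Gpc4 (2.28-fold, limma adjusted p = 2.59e-06). Wls, which carries Wnts to the cell surface, was not called, at 7.68 ± 0.11 in pEGFR-Hi against 7.35 ± 0.22 in pEGFR-Lo (limma adjusted p = 0.0152).

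Of 23 genes listed as receptors and surface regulators, 5 were called higher in pEGFR-Lo and 2 in pEGFR-Hi. Higher in pEGFR-Hi were Tmem88 (3.93-fold), which binds Dishevelled, and Tpbg (2.94-fold). The 4 with the smallest adjusted p toward pEGFR-Lo were Tspan12, Mcc (2.62-fold), the Dkk receptor Kremen1 (2.05-fold) and the secreted antagonist Sostdc1 (at least 2.83-fold). Frzb, the remaining called gene, was below background in pEGFR-Hi and near it in pEGFR-Lo (mean 4.14). Against background its fold was at least 1.03, while the measured fold was 2.13. Wnt7a and Wnt7b act on brain endothelium through Adgra2 and Reck. Adgra2 was 6.15 ± 0.24 in pEGFR-Hi against 6.37 ± 0.13 in pEGFR-Lo and did not pass the test (limma adjusted p = 0.137). Reck, at 5.30 ± 0.17 and 4.91 ± 0.14, passed it toward pEGFR-Hi under 2-fold (1.31-fold, limma adjusted p = 0.0031).

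The cytoplasmic list of 45 genes held 2 called genes, Plcb1 (at least 3.49-fold) and Ppp2r5b (2.21-fold), both higher in pEGFR-Lo. Of 25 nuclear cofactors 0 were called in either direction by limma, and SAM called 0. An unadjusted limma p under 0.05 was held by 18 (10 toward pEGFR-Hi, 8 toward pEGFR-Lo). Under 2-fold, Chd8, Ruvbl1, Ruvbl2, Tbl1x, Crebbp and Pygo2 passed the test toward pEGFR-Hi. Cby1, Tbl1xr1, Tle4, Kdm1a and Tle2 passed it toward pEGFR-Lo, also under 2-fold. The planar polarity and calcium list of 40 genes held 4 genes called toward pEGFR-Lo and 2 toward pEGFR-Hi. The polarity cadherins Celsr2 (5.07-fold, limma adjusted p = 4.87e-09) and Celsr1 (2.61-fold, limma adjusted p = 3.51e-08) were higher in pEGFR-Hi. The kinases Camk2b (8.46-fold), Mapk10 (5.19-fold) and Prkcb (4.75-fold) and the calcineurin subunit Ppp3ca (2.15-fold) were higher in pEGFR-Lo.

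Of 41 genes often named as canonical targets, 6 were called higher in pEGFR-Lo and 4 higher in pEGFR-Hi. The 4 with the smallest adjusted p toward pEGFR-Lo were the adhesion molecule Nrcam (8.66-fold), the cyclins Ccnd2 (7.28-fold) and Ccnd1 (4.55-fold), and Gbx2 (3.03-fold). Toward pEGFR-Hi they were Birc5 (2.62-fold), Enc1 (2.19-fold), Jun (2.13-fold) and Cd44 (2.08-fold). The targets were thus called in both directions.

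**Figure D5:**
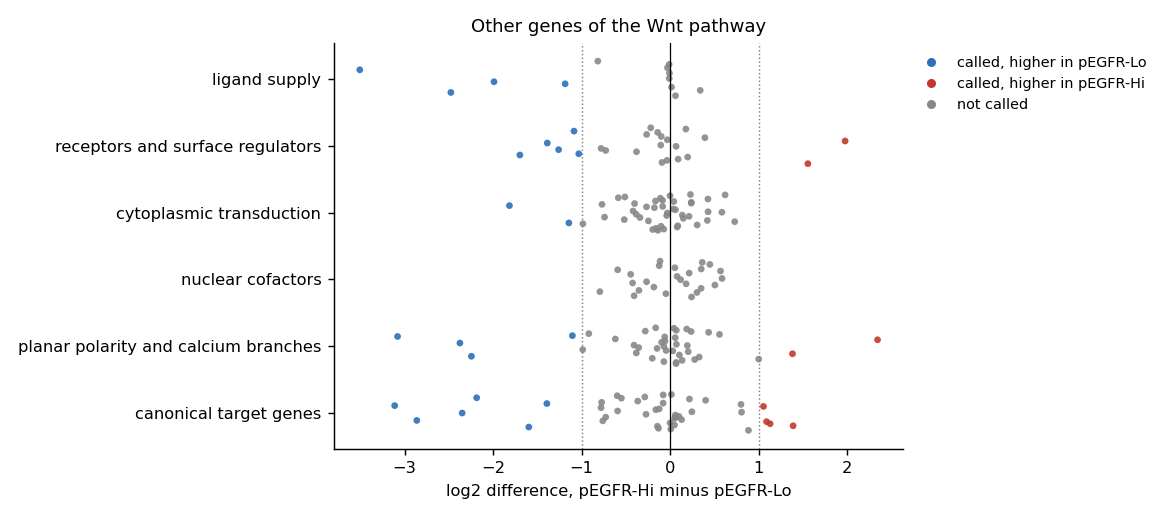
Log2 difference, pEGFR-Hi minus pEGFR-Lo, of the other Wnt pathway genes in 6 lists, 1 point per gene (n = 6 mice per group); dotted lines mark a 2-fold difference and 3 genes stand in more than 1 list. Called genes lie on both sides in the receptor, polarity and target lists, and on the pEGFR-Lo side alone in the ligand supply and cytoplasmic lists.

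Markers of the sorted cells and of other brain cell types were read from the same arrays. Of 11 measured markers of tumor and neural progenitors, 11 were above background, and Fabp7 and Ptprz1 were called higher in pEGFR-Lo. Under 2-fold, Sox2 passed the test toward pEGFR-Hi, and Pdgfra, Olig1 and Bcan toward pEGFR-Lo. Of 10 astrocyte markers, Slc1a3, Slc1a2, S100b and Gja1 were called higher in pEGFR-Lo (13.6-fold, 6.51-fold, 20.02-fold and 3.07-fold) and Gfap higher in pEGFR-Hi (2.69-fold). Aldoc, the brightest of the list (means 11.99 in pEGFR-Hi and 11.54 in pEGFR-Lo), passed the test toward pEGFR-Hi without overlap. Its fold was 1.37 (limma adjusted p = 0.000773). The log2 of the summed level of the list was 12.2 to 12.6 over pEGFR-Hi mice and 12.5 to 12.7 over pEGFR-Lo mice, which overlap. The mean of the log2 levels of the list was 5.92 to 6.24 and 7.02 to 7.42, which do not. The part of this list in the differences of the members was not tested. In sorted bulk cells, fewer cells of a type and less RNA per cell cannot be told apart.

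Of 14 endothelial markers Cd93 alone was called (35.0-fold higher in pEGFR-Lo). The log2 of the summed level of the list was 7.92 to 8.27 in pEGFR-Hi and 8.47 to 10.7 in pEGFR-Lo, and without Cd93 it was 7.84 to 8.16 and 7.56 to 7.81. Flt1, Egfl7 and Erg passed the test toward pEGFR-Hi under 2-fold (1.78-fold, 1.62-fold and 1.5-fold, limma adjusted p = 8.84e-05, 0.000143 and 0.000324), with every pEGFR-Hi mouse above every pEGFR-Lo mouse. Cldn5 was above background in both groups and Kdr in pEGFR-Hi only. The other 8, Pecam1, Cdh5, Tek, Tie1, Esam, Slco1a4, Emcn and Sox17, were below it in both. Emcn, though dim, passed the test toward pEGFR-Lo under 2-fold and without overlap (log2 difference -0.92, limma adjusted p = 0.00252). Of 15 microglia and macrophage markers, P2ry12 was called higher in pEGFR-Lo and Cd68 in pEGFR-Hi. In all, 8 of the 15 were above background, with Cx3cr1, Tmem119, C1qa, C1qb, C1qc and Tyrobp among them. Aif1, Csf1r, Ptprc, Itgam, Fcer1g, Lyz2 and Adgre1 were below it in both groups. The log2 of the summed level of that list was 8.20 to 8.51 in pEGFR-Hi and 8.26 to 8.78 in pEGFR-Lo. Of 12 pericyte and fibroblast markers, Rgs5 was called higher in pEGFR-Lo and Anpep in pEGFR-Hi. The log2 of their summed level was 8.10 to 8.97 in pEGFR-Hi and 8.48 to 9.54 in pEGFR-Lo, over the whole list. Of 12 markers of mature neurons 0 were called at 2-fold by limma or by SAM. An unadjusted limma p under 0.05 was held by 4, all higher in pEGFR-Lo. Of these, Snap25 (at least 1.23-fold, limma adjusted p = 1.08e-06, no overlap) and Gad1 (1.44-fold, limma adjusted p = 0.0025) passed the test. The log2 of the summed level of the neuron list was 7.52 to 7.68 in pEGFR-Hi and 7.73 to 8.07 in pEGFR-Lo, without overlap. Of 9 markers of myelinating oligodendrocytes, Cnp was called higher in pEGFR-Hi and Ermn in pEGFR-Lo. The log2 of the summed level of this list was 9.41 to 10.2 in pEGFR-Hi and 8.50 to 9.13 in pEGFR-Lo. Cnp was by far its brightest gene, with means of 9.66 and 8.24. The mean of the log2 levels of the list lay the other way, 4.33 to 4.50 in pEGFR-Hi and 4.505 to 4.68 in pEGFR-Lo, also without overlap. The part of these lists in the differences of the members was not tested.

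Of 21 interferon-stimulated genes 18 were called higher in pEGFR-Hi. Without the 2 pEGFR-Lo mice that stood apart in these genes, replicates 3 and 6, 11 members were called higher in pEGFR-Lo, the 12 less Nkd1, and Tcf7l2 higher in pEGFR-Hi.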

How the data were processed

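Tumor cells carrying ZsGreen were sorted from 12 mouse brains (6 pEGFR-Hi, 6 pEGFR-Lo, from the sample labels), and their RNA was hybridized to 12 Affymetrix mouse gene arrays. The authors deposited log2 values made with RMA in Affymetrix Expression Console (background correction, quantile normalization, summarization of each probe set; version not given in the sources used here). Of 35556 probe sets, 21789 carried 1 gene symbol and were named, 21698 of these by Entrez ID through RefSeq (GRCm38.p6). The brightest probe set by mean over all arrays stood for each of 19938 genes.

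All genes were fitted with limma 3.58.1 in R 4.3.3 with group as the only factor. A gene counted as called when its p, adjusted by Benjamini-Hochberg over all genes, was under 0.01 and its fold was 2 or more. The background level was the 95th percentile of 1027 olfactory receptor genes. Alternatives included SAM, the method that the study names. It was coded anew here, with 100 permutations that mixed the groups evenly. The methods of the study give no number of permutations.

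Every member is named, and those called or without overlap have their lowest, median and highest values. Of other lists up to 4 called genes in each direction are named, by adjusted p. Wls, Adgra2, Reck, Frzb, the neighbours of Apc and Lef1, and the endothelial and microglial markers that were not called were named after their values were seen. So were the nuclear cofactors and the progenitor, astrocyte and neuron markers that passed the test under 2-fold. The members and lists were chosen with earlier results of these data known. Replicate numbers did not pair the mice (r of same-numbered deviations -0.137 to 0.097). Tcf7 was not analysed here.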

Additional observations from a re-analysis of the deposited data

Results flagged for a closer look

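Single mice that stood apart from the other 5 of their group, by Dixon's test at 95%, were looked for in the 48 members above background, which gave 96 groups of 6 mice. In 2 of them a mouse stood apart, where chance gives about 1 in 20 groups. Wnt5a was 6.19 in pEGFR-Hi replicate 3, above the other pEGFR-Hi mice at 5.73 to 5.86. Axin1 was 6.49 in pEGFR-Lo replicate 5, below the other pEGFR-Lo mice at 6.61 to 6.67. Both values lay on the side away from the other group, and both genes had groups that did not overlap.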

How the results depend on the processing

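The counts of called members were recomputed under 22 alternatives. With the limit set at an adjusted p under 0.05 and any fold, 22 members were higher in pEGFR-Lo and 8 in pEGFR-Hi, where 16.6% and 19.4% of all genes were. Leaving out each mouse in turn gave 11 to 12 members higher in pEGFR-Lo and 1 to 1 higher in pEGFR-Hi; Sfrp1 fell under 2-fold (-0.94) without pEGFR-Hi replicate 3. Without pEGFR-Lo replicates 3 and 6, 11 and 1 were called, and Nkd1 fell under 2-fold (-0.98). With the replicate number as a block (replicate block), 12 and 1 were called, and the block changed no call at 2-fold. At an adjusted p under 0.01 and any fold, 17 to 20 members were higher in pEGFR-Lo and 7 to 8 in pEGFR-Hi over the fits with a p of their own. Axin1 (0.0103 under the block) was at 0.01 or more in 14 of 20, up to 0.0250, Wif1 in 8 of 19, up to 0.0374, and Ctnnb1 in 1, at 0.0119. Nkd2 went under 0.01 in 2 and Znrf3 in 1. SAM, a further quantile normalization, centring on array medians, leaving out dim genes, eBayes with trend and robust, array weights and the mean of probe sets each gave 12 and 1. No called member changed direction under any of these settings. The cause of these changes was not tested beyond the settings themselves. A signal near the background limits what can be read of the 13 dim members, and a fold against it is a lower bound.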
